A study of Gallus gallus with 6 samples.

Results

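The integrins, cadherins and protocadherins are the receptors by which an epithelial cell holds its basement membrane and its neighbors, and their transcripts were followed here in wounded chick lens explants. Members were taken by gene symbol, as rows whose symbol begins with ITGA, ITGB, CDH and a digit, or PCDH. This gave 50 of the 17262 genes in the deposited count table, namely 11 integrin alpha subunits, 7 integrin beta subunits, 5 integrin-binding or integrin-like proteins, 16 cadherins and 11 protocadherins. Of these, 37 had 10 or more counts in at least 3 of the 6 libraries and are described. Just inside this limit lay CDH18, ITGA9 and PCDH10, where the third highest count was 10, 12 and 12, and just outside lay ITGB7 and CDH17, with 7 each. CDH7, ITGB6 and PCDH8 met the limit through their 1 h libraries alone, so that a difference was built into their selection. The row with the symbol CDH15 is described in the table as acyl-CoA synthetase family member 3, with an AMP-binding family, so its values are not taken as those of a cadherin.

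Lenses of embryonic day 14 chicks were opened ex vivo by removing the central anterior epithelium, and the fiber cells were washed out, which left the capsule with its equatorial epithelium and resident immune cells. Such wounded explants were collected directly after the wounding (time 0, 3 samples) or 1 h later (3 samples), each sample a pool of 6 explants. Both groups had the same cataract surgery wounding. The account of time 0 follows the study's methods, because the growth text in the labels describes the culture of 1 h explants and is repeated unchanged for the time 0 samples. The 1 h explants were also incised, flattened capsule side down on a culture substrate and kept for 1 h in M199 medium with 10% fetal bovine serum. The time after wounding, the flattening and the culture therefore cannot be told apart in this comparison. In pooled tissue, fewer cells of a type and less RNA per cell cannot be told apart either.

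Integrins are heterodimers of an alpha and a beta subunit that bind matrix proteins outside the cell and the actin cytoskeleton inside it through talin, kindlin and vinculin. The lens epithelium rests on a laminin and collagen IV capsule, and the laminin receptors of the beta 1 family are the best known integrins of lens cells. Classical cadherins join cells through calcium-dependent contacts and are tied to actin by the catenins, and N-cadherin, the product of CDH2, is the principal cadherin of lens fiber and epithelial cells. Protocadherins carry related extracellular domains without the catenin-binding tail and are known mainly from the nervous system.

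The libraries held between 13733581 and 17673955 counts, of which the members took between 46128 and 57446. Levels are given as CPM, counts scaled to a common library size after edgeR's TMM normalization, and levels of different genes are set side by side only as CPM per kb of the gene length in the authors' table. A count of 3, used as the floor, corresponded to between 0.175 and 0.221 CPM, which covers counting error only. Markers of lens fibers fell, with 7 of 10 tested genes significantly lower, against 12% of all genes tested. Their summed level was 36442 to 45644 CPM at time 0 and 25710.4 to 31783 CPM at 1 h. Most of this sum was ASL1, itself significantly lower, with 29382 to 38265 CPM at time 0 and 20109 to 25825 CPM at 1 h. Of the 6 genes tested from the lens epithelium list, PAX6, PROX1 and SIX3 (50%) were significantly higher and GJA1 (16.7%) was lower. Of all genes tested, 19.8% were higher and 12% lower. The list does not separate epithelium from fiber cells here, since expression by cell type was not measured for its 6 genes. Their summed level, most of it the crystallin CRYAA, was 74328 to 89761 CPM at time 0 and 73063 to 79624 CPM at 1 h, while that of immune markers was 2.42 to 6.40 and 4.09 to 5.93 CPM. The endothelial markers ERG and SOX18 and the pigment cell markers DCT, OCA2, TYR and TYRP1 had 3 counts or fewer in each library. The remaining pigment cell markers SLC45A2, RPE65 and PMEL had 31 to 83, 9 to 32 and 3 to 20 counts, and the summed level of that list was 6.34 to 8.58 CPM at time 0 and 4.37 to 6.36 CPM at 1 h. The vascular receptor gene KDR was the 1 endothelial marker with enough reads and was significantly higher at 1 h. The remaining endothelial markers found did not all follow KDR. TEK had 2, 3 and 5 counts at time 0 against 4, 2 and 2 at 1 h. EGFL7 had 4, 7 and 8 against 2, 7 and 14, and TIE1 had 0, 2 and 0 against 7, 3 and 5. The muscle marker DES was also significantly higher, with 13, 14 and 11 counts at time 0 against 74, 59 and 113 at 1 h. The other muscle markers found did not follow DES and had too few reads for the test. MYOD1 had 9, 5 and 10 counts at time 0 against 3, 2 and 8 at 1 h, and ACTC1 had 9, 9 and 1 against 1, 15 and 1. Of the mesenchymal markers 6 were tested and none changed significantly in edgeR (1 higher and 1 lower at an unadjusted p under 0.05, 0 with DESeq2's Wald test or limma-voom), with a summed level of 333 to 382 CPM at time 0 and 321 to 375 CPM at 1 h. Most of that sum was PDGFRA, with 309 to 356 CPM at time 0 and 298 to 349 CPM at 1 h. The fitted log2 fold changes of COL1A1, COL1A2, DCN and PDGFRB were -1.81, -1.20, -0.74 and -0.62, and that of COL3A1 was 0.59. The sum therefore says little about these 5 genes. The part of these marker changes in the results below was not tested.

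Some libraries held transcripts that the others had in few counts or in none, as the plot of marker genes by library shows. The hemoglobin gene HBA1 had 29, 44 and 40 counts in replicates 1, 2 and 3 at time 0, against 309, 0 and 3 at 1 h, and HBM had 23, 21 and 8 against 108, 2 and 0. The neural marker STMN2 had 0, 0 and 0 counts at time 0 against 1, 0 and 56 at 1 h, and SNAP25 had 0, 0 and 0 against 1, 0 and 16. Thus 1 h replicate 1 stood apart in both hemoglobin genes and 1 h replicate 3 in both neural genes. ALAS2, the blood marker with the most counts, did not follow, with 27.3, 25.1 and 26.9 CPM at time 0 and 25.4, 29.4 and 29.1 CPM at 1 h. Time 0 replicate 2 was the highest library for some mesenchymal transcripts. Of these, COL1A1 had 15, 119 and 10 counts at time 0 against 27, 7 and 9 at 1 h, and DCN had 90, 549 and 296 against 164, 289 and 137. Among the members, ITGA2B was far above the other 1 h libraries in replicate 1, with 43, 3 and 2 counts in 1 h replicates 1, 2 and 3. PCDH17, with 0, 3 and 14 counts, and CDH20, with 50, 46 and 94 counts, were highest in replicate 3. The summed level of the blood markers was 29.5 to 31.2 CPM at time 0 and 29.2 to 53.0 CPM at 1 h, and that of the neural markers was 15.2 to 18.5 and 34.6 to 45.6 CPM. At time 0 most of the blood sum was ALAS2. The neural sum was the marker ELAVL4 alone at time 0 and mostly ELAVL4 at 1 h. Calls that were lost or turned without one of these libraries are given with and without it.

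**Figure D1:**
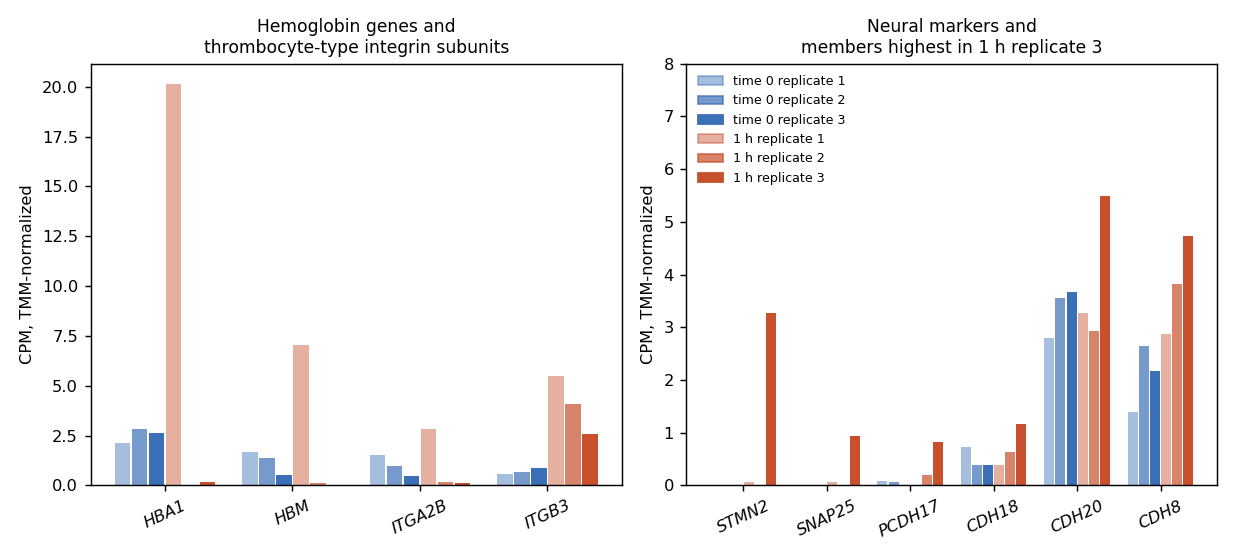
CPM (TMM-normalized, linear axis from 0) of marker genes and of members in each of the 6 libraries, blue for time 0 and red for 1 h, with darker shades for higher replicate numbers. HBA1, HBM and ITGA2B stand out in 1 h replicate 1, STMN2, SNAP25 and PCDH17 in 1 h replicate 3, whereas ITGB3 is higher in each of the 3 libraries at 1 h. The genes drawn were chosen after their values were seen.

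To ask which adhesion receptors changed within the first hour, the time points were compared over all 12391 genes with enough reads, with the quasi-likelihood test of edgeR, and p-values were adjusted after Benjamini and Hochberg. Genes with an adjusted p under 0.05 are called significantly changed, and SE is the standard error of a log2 fold change. Of the 36 members tested, 8 (22.2%) were significantly higher at 1 h, against 19.8% of all genes tested, and 3 (8.33%) were significantly lower, against 12%, while 31.8% of all genes changed in either direction. These shares lie near those of all genes, so the number of changed members sets the group little apart from other genes. The median log2 fold change of the 36 was 0.20, and that of all genes tested was -0.00585. At least 2-fold higher were PCDH9, ITGB6, PCDH8, ITGB3 and CDH7, 5 of 36 (13.9%) against 6.46% of all genes, and 3 of these 5 are the genes that entered through their 1 h libraries. No member was significantly lower by 2-fold or more, against 0.775% of all genes. The counts depended on single libraries, with 5 members higher without time 0 replicate 3 or without 1 h replicate 3, and 2 and 5 members lower without time 0 replicate 2 and without 1 h replicate 2. They also depended on the scaling, since of all genes called 62.2% were higher with TMM but 35.9% with upper-quartile and 52.2% with library total scaling, where 5 and 7 members were higher and 6 and 4 lower. In 12 members (33.3%) every 1 h library lay above every time 0 library, against 25.3% of all genes, and in 3 (8.33%) every 1 h library lay below, against 21.4%. The 12 members, like the median of the 36, include CDH7, ITGB6 and PCDH8, which were selected through their 1 h libraries alone. Neither value can therefore be read as an excess over all genes. The changed members ranged in level at time 0 from the 3 genes near the floor that were selected through 1 h to ITGAV, PCDHAC1, PCDHGA2 and ITGB5, which had means of 230.4, 80.6, 60.5 and 54.2 CPM. The abundant subunits ITGB1, ITGA6 and CDH2 had log2 fold changes of 0.021, 0.035 and 0.071.

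**Figure D2:**
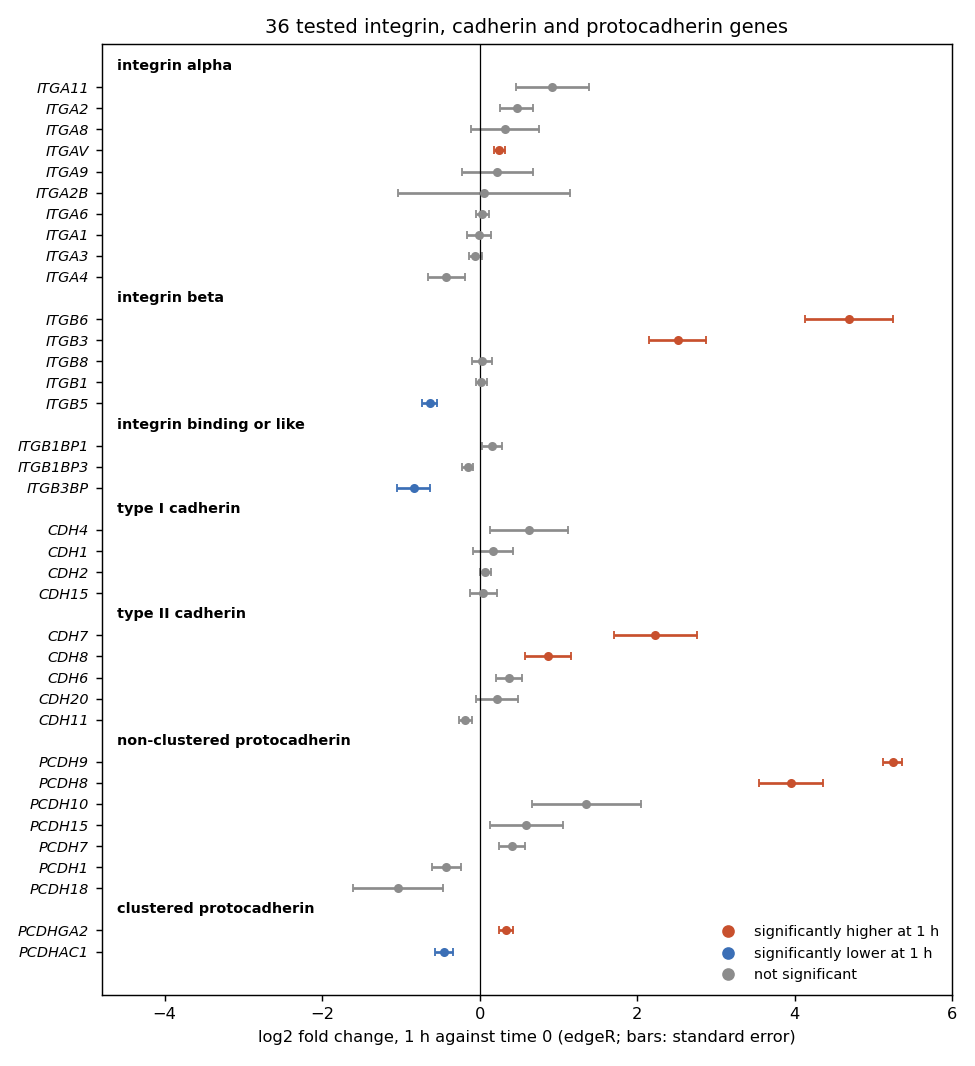
Log2 fold change of the 36 tested members at 1 h against time 0 (x axis, edgeR fit over all genes, bars are standard errors), ordered by role, red for significantly higher, blue for significantly lower and gray for not significant. PCDH9 at 5.24, ITGB6 at 4.69 and PCDH8 at 3.95 lie far to the right, and most other members lie near 0.

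PCDH9 encodes a protocadherin of the delta 1 type that is best known from neurons, and it had the largest fitted change of the 36 tested members (ENSGALG00000016908, chromosome 1 from 160443682 to 160632766 as deposited, the build not being named). It had 4.35, 4.13 and 4.85 CPM in replicates 1, 2 and 3 at time 0 and 171, 148 and 186 CPM in those at 1 h. The 3 libraries of each time point lay close together and far from those of the other. Its log2 fold change was 5.24 (SE 0.12, adjusted p = 5.92e-11), a 37.8-fold increase, and it ranged from 5.11 to 5.31 over the 16 other settings of the analysis. In level per kb, PCDH9 went from 1.13 ± 0.0926 at time 0 to 42.7 ± 4.86 at 1 h (SD, n = 3 libraries each). At 1 h this was between the level per kb of ITGA6, 29.8 ± 2.04, and that of ITGAV, 47.8 ± 2.16, the most abundant alpha subunits. Within the 9 non-clustered protocadherins, PCDH9 took 8.30% ± 1.32 of the summed level per kb at time 0 and 77.4% ± 4.86 at 1 h, as the sum itself went from 13.8 ± 1.84 to 55.1 ± 4.41 CPM per kb. Without 1 h replicate 3, the library with STMN2 and SNAP25 transcripts, the log2 fold change of PCDH9 was 5.14. The neural RNA-binding protein gene ELAVL4, the 1 neural marker with enough reads for the test, went from 15.3, 18.5 and 15.2 to 34.5, 37.6 and 41.4 CPM, a significant rise (adjusted p = 6.32e-06), and its part in the rise of PCDH9 was not tested.

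PCDH8, a delta 2 protocadherin known in rat neurons as the activity-induced arcadlin, lies on the same chromosome (ENSGALG00000036258, chromosome 1 from 167019707 to 167023223). It had 2, 7 and 2 counts at time 0 against 57, 69 and 64 at 1 h, that is 0.147, 0.452 and 0.131 CPM and 3.72, 4.40 and 3.74 CPM. All 3 libraries at 1 h were alike, and time 0 replicate 2 was the highest of its group. The log2 fold change was 3.95 (SE 0.41, adjusted p = 1.72e-05), but with so few counts at time 0 its size is uncertain, and it ranged from 3.64 to 4.75 over the other settings, the highest without time 0 replicate 2. PCDH17, which lies between these genes on chromosome 1, had 1, 1 and 0 counts at time 0 against 0, 3 and 14 at 1 h and had too few reads for the test.

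**Figure D3:**
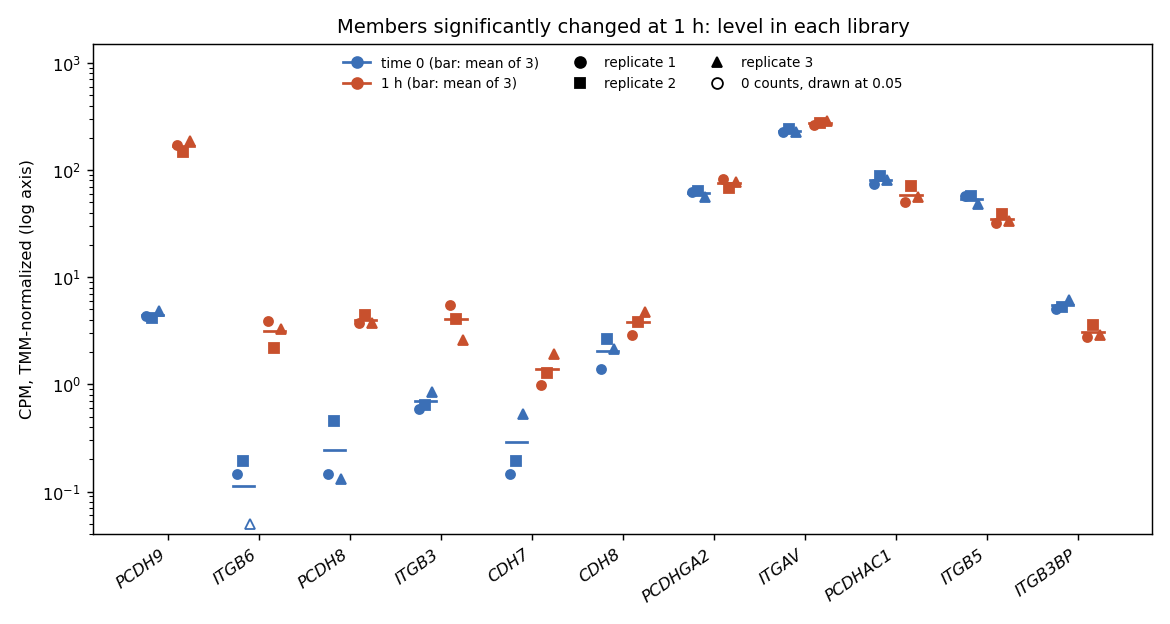
CPM (TMM-normalized, log axis) of the 11 significantly changed members in each library, blue for time 0 and red for 1 h, with a bar at each mean and a different symbol for each replicate. PCDH9 moves the farthest, from a mean of 4.44 to 168 CPM, and ITGB6, PCDH8 and CDH7 start at a few counts.

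The 5 remaining non-clustered protocadherins tested changed less, and none of them passed the threshold, against 31.8% of all genes. With so few genes this cannot be read as a difference from all genes. PCDH7, of the delta 1 type, had 7.44, 11.5 and 11.3 CPM at time 0 and 12.5, 14.2 and 13.8 CPM at 1 h. The groups did not overlap, but the log2 fold change of 0.42 (SE 0.17) missed the threshold with an adjusted p of 0.0736. PCDH1, also of the delta 1 type and the most abundant non-clustered protocadherin at time 0, had 33.1, 42.4 and 37.2 CPM at time 0 and 20.2, 34.6 and 29.3 CPM at 1 h, with overlapping libraries. Its log2 fold change was -0.42 (SE 0.18, adjusted p = 0.113), and the adjusted p was 0.0180 without 1 h replicate 2, 0.0377 with upper-quartile scaling and 0.0463 with DESeq2's Wald test. PCDH18 varied widely at 1 h, with 3, 33 and 17 counts against 22, 36 and 43 at time 0 and an adjusted p of 0.193, which was 0.0248 without 1 h replicate 2. PCDH10 had 1, 12 and 2 counts at time 0 against 8, 20 and 14 at 1 h, and its adjusted p of 0.156 became 0.0205 without time 0 replicate 2. PCDH15, a component of the hair cell tip link, had between 0.581 and 1.93 CPM in the 6 libraries and an adjusted p of 0.354.

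Some delta protocadherins stood outside the symbol rule and are named here after their values were seen. The row spelled Pcdh19, of the delta 2 type, had 5.97, 9.17 and 5.76 CPM at time 0 and 12.8, 12.1 and 11.9 CPM at 1 h, a log2 fold change of 0.81 (SE 0.18, adjusted p = 0.00510). The row without a symbol that the table describes as protocadherin 11 X-linked (ENSGALG00000006851), of the delta 1 type, had 3.68, 6.72 and 5.83 CPM at time 0 and 9.20, 11.8 and 12.9 CPM at 1 h, a log2 fold change of 1.06 (SE 0.22, adjusted p = 0.00310). Each 1 h library of both was above each time 0 library, with increases well below those of PCDH9 and PCDH8. A further row without a symbol, described as protocadherin delta 1, did not rise. It had 27, 11 and 20 counts at time 0 against 12, 30 and 6 at 1 h. Its libraries overlapped, and its log2 fold change was -0.39 (SE 0.57, adjusted p = 0.637).

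The clustered protocadherins, whose isoforms share constant exons and differ in their first exon, were represented by a row for the alpha and a row for the gamma cluster, and these changed in opposite directions. PCDHAC1 had 74.5, 87.1 and 80.2 CPM at time 0 and 50.8, 70.9 and 55.6 CPM at 1 h, so that each 1 h library was below each time 0 library. Its log2 fold change was -0.45 (SE 0.12, adjusted p = 0.0130), and the adjusted p was 0.0526 without time 0 replicate 2. PCDHGA2 had 62.6, 63.1 and 55.7 CPM at time 0 and 83.1, 67.6 and 77.8 CPM at 1 h, each 1 h library above each time 0 library, with a log2 fold change of 0.33 (SE 0.090, adjusted p = 0.0148). With a correction for gene length the value of PCDHGA2 was -0.013 (adjusted p = 0.952), its row being 14586 bases long, and its call was also lost without time 0 replicate 3 and without 1 h replicate 1 or 3. The reads of single isoforms cannot be told apart in these rows, and a row without a symbol overlaps PCDHGA2 on the same strand, so both results are uncertain.

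Among the integrin beta subunits, ITGB6 and ITGB3 rose and ITGB5 fell, and all 3 encode partners of the alpha v subunit. ITGB6 (ENSGALG00000011141, chromosome 7 from 21793549 to 21822090), an epithelial subunit that pairs with alpha v alone and binds the latent form of TGF-beta, had 2, 3 and 0 counts at time 0 against 60, 34 and 56 at 1 h. It was at or below the floor in every time 0 library and well above it in every 1 h library, with 3.91, 2.17 and 3.27 CPM. Its mean CPM at 1 h was 15.3 times the mean CPM that the floor of 3 counts had at time 0. The fitted log2 fold change was 4.69 (95% interval 3.47 to 5.91, edgeR adjusted p = 5.24e-05), and 4.48 without 1 h replicate 1. Over the 16 other settings it ranged from 4.12 to 5.33. The fitted value depends on counts near 0 and is not a bound, and ITGB6 entered through its 1 h libraries alone.

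ITGB3 (ENSGALG00000000379, chromosome 27 from 4721958 to 4738989) encodes the beta 3 subunit, which pairs with alpha v in many cells and with alpha IIb, the product of ITGA2B, in blood platelets and bird thrombocytes. It had 0.590, 0.646 and 0.851 CPM at time 0 and 5.48, 4.08 and 2.57 CPM at 1 h, so that the lowest 1 h library, replicate 3, was still above each time 0 library. The log2 fold change was 2.52 (SE 0.36, adjusted p = 0.000242). The highest 1 h library was replicate 1, the library with the most hemoglobin counts, and without it the log2 fold change was 2.22 (adjusted p = 0.000967). ITGA2B itself had 1.55, 0.969 and 0.458 CPM at time 0 and 2.80, 0.191 and 0.117 CPM at 1 h. It was highest in that same library and near the floor in both other 1 h libraries, where ITGB3 was high. Its log2 fold change of 0.054 (adjusted p = 0.977) turned to -2.64 (adjusted p = 0.0221) without 1 h replicate 1. ITGA2B overlaps GPATCH8 on the same strand in the authors' table, so the counts of ITGA2B are uncertain. GPATCH8 had 965 to 1918 counts per library and a log2 fold change of 0.45 (edgeR adjusted p = 0.00236).

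ITGB5 (ENSGALG00000029766, chromosome 7 from 27871850 to 27912771), the vitronectin-binding partner of alpha v, had 57.4, 57.1 and 48.2 CPM at time 0 and 32.3, 38.9 and 33.5 CPM at 1 h. The highest 1 h library was below the lowest time 0 library, and the log2 fold change was -0.64 (SE 0.099, adjusted p = 0.000455). ITGB1, the common partner of the collagen, laminin and fibronectin receptors, had 254, 253 and 253 CPM at time 0 and 263, 262 and 246 CPM at 1 h. The libraries overlapped, and the 95% interval of its log2 fold change was -0.12 to 0.17. ITGB8, whose product pairs with alpha v and takes part in the activation of TGF-beta, had 19.3, 22.4 and 20.4 CPM at time 0 and 17.5, 23.5 and 22.2 CPM at 1 h, with an interval of -0.25 to 0.30.

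In level per kb, ITGB1 was the most abundant beta subunit at both time points, with 66.6 ± 0.194 CPM per kb at time 0 and 67.6 ± 2.63 at 1 h (SD, n = 3 libraries each). No row had the symbol ITGB4 or ITGA5, so the shares and ranks of subunits hold only among the rows found by symbol. ITGB1 made up 72.4% ± 1.56 of the summed level per kb of the 7 beta subunits at time 0 and 76.2% ± 1.37 at 1 h. The other alpha v partners ITGB3, ITGB5, ITGB6 and ITGB8 were therefore compared among themselves. Of their sum, which was 25.1 ± 1.88 CPM per kb at time 0 and 20.9 ± 1.62 at 1 h, ITGB5 took 71.6% ± 2.38 at time 0 and 55.5% ± 1.29 at 1 h. ITGB3 took 0.811% ± 0.224 at time 0 and 5.65% ± 2.27 at 1 h. ITGB6 took 0.158% ± 0.139 and 5.52% ± 1.92. Despite their steep increases, ITGB3 and ITGB6 thus stayed minor subunits in transcript level at 1 h, with 1.17 ± 0.421 and 1.13 ± 0.320 CPM per kb, below ITGB5 with 11.6 ± 1.15 and ITGB8 with 6.99 ± 1.06.

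**Figure D4:**
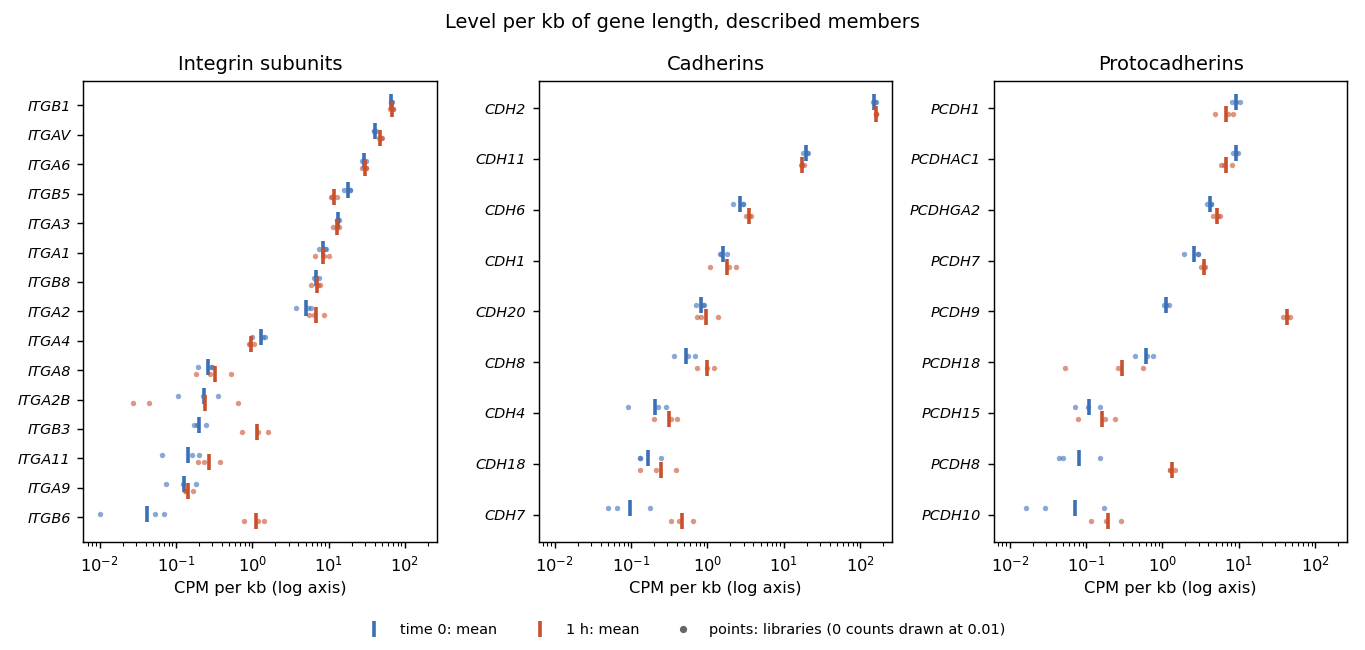
Level per kb of gene length (CPM per kb, log axis) of the described integrin subunits, cadherins and protocadherins, with points for libraries and bars for means, blue for time 0 and red for 1 h, ordered by the level at time 0. The means of ITGB1, ITGA6 and CDH2 lie nearly on each other, while PCDH9 moves from 1.13 to 42.7 CPM per kb.

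Of the 10 alpha subunits tested, ITGAV was the 1 (10%) with a significant change, against 31.8% of all genes. ITGAV (ENSGALG00000002655, chromosome 7 from 1348987 to 1399109) had 224, 242 and 225 CPM at time 0 and 261, 276 and 286 CPM at 1 h, each 1 h library above each time 0 library. The increase was small, a log2 fold change of 0.25 (SE 0.070, adjusted p = 0.0170), and its call was lost in 6 of the 16 other settings, among them leaving out time 0 replicate 1 or 3 and 1 h replicate 2 or 3. ITGAV was also the most abundant alpha subunit, with 40.9% ± 0.387 of the summed level per kb of the alpha subunits at time 0 and 44.4% ± 2.30 at 1 h. ITGA6, which forms laminin receptors with the beta 1 and beta 4 subunits, followed with 29.7% ± 0.829 and 27.7% ± 2.16. It had 134, 141 and 124 CPM at time 0 and 143, 140.3 and 126 CPM at 1 h, and the 95% interval of its log2 fold change was -0.14 to 0.21. ITGA3, the other main laminin receptor subunit, had 59.4, 63.0 and 62.7 CPM at time 0 and 53.9, 64.2 and 59.9 CPM at 1 h, with an interval of -0.23 to 0.12. The libraries of both laminin receptor subunits overlapped between the time points.

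The collagen receptor subunits ITGA1 and ITGA2 did not change significantly. ITGA1 had 53.1, 51.0 and 42.4 CPM at time 0 and 37.8, 58.3 and 49.4 CPM at 1 h, and ITGA2 had 13.2, 19.3 and 20.5 and 23.0, 31.1 and 19.5 CPM. Their log2 fold changes were -0.009 (adjusted p = 0.970) and 0.47 (adjusted p = 0.113). In both genes 1 h replicate 2 was the highest of the 6 libraries. ITGA4, a leukocyte and mesenchymal subunit, had between 2.74 and 4.52 CPM in the 6 libraries, with a log2 fold change of -0.42 (adjusted p = 0.187). ITGA8, ITGA9 and ITGA11 had at most 34 counts in a library, and their adjusted p-values were 0.599, 0.742 and 0.146. ITGA8 was highest in 1 h replicate 1, and its log2 fold change of 0.32 was -0.19 without that library.

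CDH2, which encodes N-cadherin, was the most abundant cadherin by far and changed little. It had 667, 650.0 and 618 CPM at time 0 and 682, 671 and 678 CPM at 1 h (ENSGALG00000015132, chromosome 2 from 104786041 to 104900468). All 1 h libraries lay slightly above all time 0 libraries, but the log2 fold change of 0.071 (SE 0.067, adjusted p = 0.452) was not significant, with a 95% interval of -0.076 to 0.22. In level per kb, CDH2 had 154 ± 6.03 CPM per kb at time 0 and 162 ± 1.32 at 1 h, which was 85.4% ± 1.26 and 86.1% ± 0.520 of the sum over all cadherins, the row CDH15 left out. CDH1, the E-cadherin of most epithelia, was far lower, with 1.59 ± 0.179 CPM per kb at time 0, from 92, 89 and 84 counts at time 0 against 111, 141 and 71 at 1 h. In CPM, its 1 h libraries spread on both sides of those at time 0 (adjusted p = 0.637, 95% interval -0.38 to 0.73). CDH4, the R-cadherin of the retina, had 9, 13 and 4 counts at time 0 against 15, 9 and 20 at 1 h (adjusted p = 0.363). The row CDH15 had between 5.10 and 6.63 CPM in the 6 libraries (adjusted p = 0.859). Of the 4 tested type I rows, CDH15 included, 0 changed significantly in the edgeR test, 0 also at an unadjusted p under 0.05 and 0 with DESeq2's Wald test or limma-voom. Of all genes, 31.8% changed in the edgeR test.

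The type II cadherins were lower in level per kb than CDH2, and CDH7 and CDH8 were significantly higher at 1 h. CDH7, known in the chick from migrating neural crest cells, had 2, 3 and 8 counts at time 0 against 15, 20 and 33 at 1 h (ENSGALG00000013782, chromosome 2 from 95468521 to 95545982), that is 0.147, 0.194 and 0.524 and 0.978, 1.28 and 1.93 CPM. The groups did not overlap, but time 0 replicate 3 was the highest of its group. The highest of all was 1 h replicate 3, the library with the most STMN2 and SNAP25 counts. The neural marker ELAVL4 was higher in each 1 h library than in each time 0 library. Leaving out 1 h replicate 3 therefore does not take out the neural markers. The log2 fold change was 2.23 (SE 0.53, adjusted p = 0.00706), and without 1 h replicate 3 it was 1.90 (adjusted p = 0.0408). CDH8, a cadherin of neurons, had 1.40, 2.65 and 2.16 CPM at time 0 and 2.87, 3.83 and 4.73 CPM at 1 h, again highest in 1 h replicate 3. Its log2 fold change of 0.87 (SE 0.29, adjusted p = 0.0393) was 0.66 without that library (adjusted p = 0.163), and the call was lost in 8 of the 16 other settings, among them leaving out time 0 replicate 1 or 3 or 1 h replicate 2. The part of the neural transcripts in these increases was not tested.

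CDH11, the second most abundant cadherin, with 19.7 ± 1.72 CPM per kb at time 0, is known from mesenchymal cells. It had 91.6, 105 and 108 CPM at time 0 and 89.4, 93.9 and 85.7 CPM at 1 h, with overlapping libraries, a log2 fold change of -0.18 (SE 0.080) and an adjusted p of 0.107. Without time 0 replicate 1, the lowest of its group, the adjusted p was 0.0385, and it was 0.00898 with upper-quartile scaling and 0.00864 with the gene length correction. CDH6 had 7.96, 5.81 and 7.92 CPM at time 0 and 8.54, 9.51 and 10.0 CPM at 1 h, without overlap but with an adjusted p of 0.108. CDH20 had 2.80, 3.55 and 3.67 and 3.26, 2.93 and 5.49 CPM, and its log2 fold change of 0.22 turned to -0.13 without 1 h replicate 3, neither significant. CDH18 had 10, 6 and 6 counts at time 0 against 6, 10 and 20 at 1 h and was the 1 described member with too few reads for the test.

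Some symbols that begin with ITGB name proteins that bind integrins or were once named so. ITGB3BP, a centromere protein, had 5.01, 5.30 and 6.09 CPM at time 0 and 2.74, 3.57 and 2.86 CPM at 1 h. Each 1 h library was below each time 0 library, and the log2 fold change was -0.84 (SE 0.21, adjusted p = 0.00871). ITGB3BP overlaps EFCAB7 on the other strand, and EFCAB7 had a log2 fold change of -0.18 (adjusted p = 0.525). ITGB1BP3, the older symbol of the nicotinamide riboside kinase NMRK2, had the highest level per kb of all members, 821 ± 56.8 at time 0. It had 1588, 1383 and 1507 CPM at time 0 and 1324, 1386 and 1314 CPM at 1 h. Its libraries overlapped narrowly (log2 fold change -0.15, adjusted p = 0.139), and the adjusted p was 0.00901 with upper-quartile and 0.0376 with library total scaling. ITGB1BP1, a regulator of beta 1 integrin activation, had 10.3, 9.37 and 10.7 CPM at time 0 and 11.2, 11.7 and 11.1 CPM at 1 h, higher in each 1 h library but not significantly (adjusted p = 0.358).

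The 13 members with fewer counts included ITGB2, which encodes CD18, the beta 2 subunit of leukocytes. It had 0, 0 and 1 counts at time 0 against 5, 2 and 4 at 1 h. In CPM each 1 h library was above each time 0 library, but the counts were too few for the test. Of the immune markers, 2 had enough reads for the test, and 0 changed significantly, against 31.8% of all genes. It was 0 also at an unadjusted p under 0.05 and 0 with DESeq2's Wald test or limma-voom. CSF1R had a log2 fold change of -0.84 (SE 0.46, edgeR adjusted p = 0.188) and PTPRC of 0.67 (SE 0.46, adjusted p = 0.282). These 2 genes therefore say little about the amount of immune cells. CDH5, the cadherin of endothelium, had 0, 1 and 0 counts at time 0 against 4, 0 and 1 at 1 h, with overlapping libraries. Differences of a few counts in ITGB2 or CDH5 could not be tested at this depth. ITGA7, the laminin receptor subunit of muscle, had at most 3 counts in a library. The others were CDH9, CDH13, CDH17, CDH22, CDH23, ITGB7, ITGB1BP2, ITGBL1, PCDH12 and PCDH17. Of these, ITGB7 had the highest count, 15 in time 0 replicate 2, and it overlaps RARG on the same strand.

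Proteins that work with these receptors were taken from lists of cadherin partners, integrin adaptors, integrin ligands and other members of the cadherin superfamily. The lists were chosen with earlier results of these data known. Their shares are therefore a description and cannot be read as an excess over all genes. Over the 4 lists, 72 genes were tested, of which 25 (34.7%) were significantly higher at 1 h, against 19.8% of all genes, and 3 (4.17%) were lower, against 12%. With upper-quartile scaling 18 were higher and 11 lower, with the gene length correction 19 and 10, and without time 0 replicate 3 they were 18 and 1. Among the cadherin partners, 5 of 12 were higher and 1 was lower. Vinculin (VCL), which ties both catenins and talin to actin, rose from 22.2, 27.6 and 24.6 to 278, 212 and 276 CPM (log2 fold change 3.36, SE 0.12, adjusted p = 5.75e-09). Plakoglobin (JUP) and p120 catenin (CTNND1) rose by less, with log2 fold changes of 0.64 and 0.51 (adjusted p = 0.000136 and 0.000122). Beta-catenin (CTNNB1) and alpha-catenin (CTNNA1) had log2 fold changes of -0.13 and -0.20 (adjusted p = 0.179 and 0.0578), and the desmosomal plakophilin PKP2 was lower.

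Of the 29 integrin adaptors tested, 11 (37.9%) were higher, against 19.8% of all genes, and 1 (3.45%), paxillin (PXN), was lower, against 12%. The largest increases were those of the docking protein NEDD9 and of zyxin (ZYX), with log2 fold changes of 2.37 and 2.07 (SE 0.17 and 0.089, adjusted p = 5.43e-07 and 6.51e-09). The core activators talin (TLN1), kindlin 2 (FERMT2) and integrin-linked kinase (ILK) had log2 fold changes of -0.13, 0.15 and 0.053 (adjusted p = 0.227, 0.216 and 0.656). These activators thus did not pass the threshold. Of the 21 ligands tested, 7 (33.3%) were higher and 0 lower, against 19.8% and 12% of all genes. CTGF, CYR61, THBS1 and TNC had log2 fold changes of 6.97, 3.85, 1.93 and 0.46. Those of LAMA1, LAMA3 and LAMA5 were 0.47, 0.31 and 0.59. Vitronectin (VTN) and fibronectin (FN1), in the same list, had log2 fold changes of 0.075 and 0.027 (adjusted p = 0.700 and 0.918). Of the 10 other superfamily genes tested, FAT4 and RET (20%) were higher and CLSTN1 (10%) was lower, against 19.8% and 12% of all genes.

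The calls of the members were compared over 16 other settings of the test, the scaling, the filter, the replicates and the gene length. Of the 11 changed members, PCDH9, PCDH8, ITGB6, ITGB3, CDH7, ITGB5 and ITGB3BP passed the threshold in each of the 16. The settings reuse the same counts, and PCDH8, ITGB6 and CDH7 had entered through their 1 h libraries alone. Their steady calls are therefore no independent support. PCDHAC1 lost its call in 1 of them, PCDHGA2 in 5, ITGAV in 6 and CDH8 in 8.

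**Figure D5:**
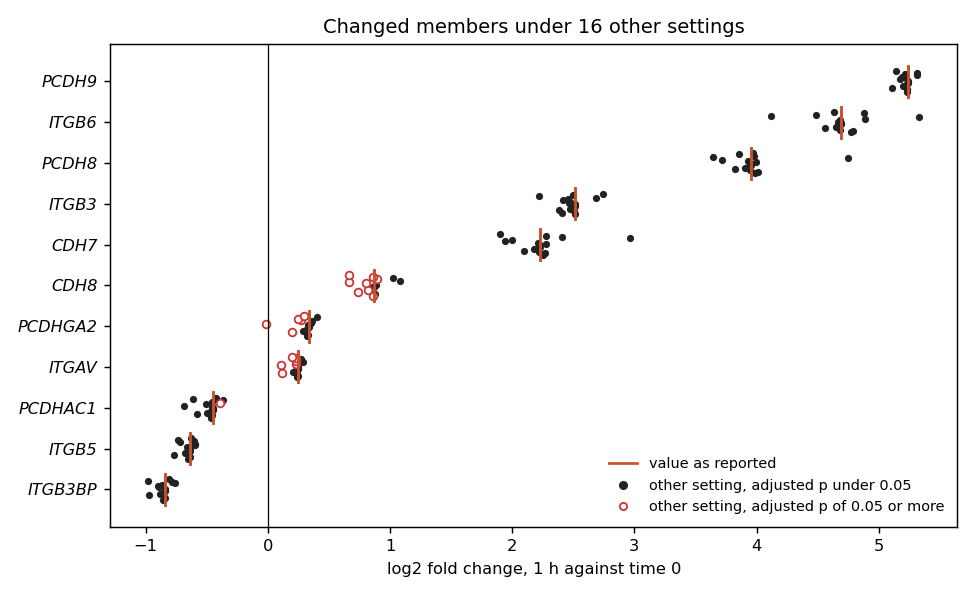
Log2 fold change of the 11 significantly changed members (x axis) as reported (red line) and under 16 other settings, each a point, filled where the adjusted p stayed under 0.05 and open where it did not. The points of PCDH9, ITGB6, PCDH8, ITGB3, CDH7, ITGB5 and ITGB3BP are all filled, and those of CDH8, PCDHGA2, ITGAV and, in 1 setting, PCDHAC1 are partly open. ITGB6, PCDH8 and CDH7 were selected through their 1 h libraries alone.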

How the data were processed

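Read counts per gene were deposited by the authors in 1 table of 17262 genes, without normalization, for chick lens explants, 3 libraries of time 0 and 3 of 1 h. The submitters' processing notes name HISAT2 2.0.5, StringTie 1.3.3b, featureCounts 1.5.0-p3 and DESeq2 1.20.0, with no role. The genome build, the annotation and whether strand was used in counting are not given in the sources used here. A further 12 columns of per-library values (6 with no stated unit and 6 of FPKM) and the authors' fold changes and p-values were not used. Gene lengths were taken from the table as deposited.

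Counts were analysed with R 4.3.3, edgeR 4.0.16 (filterByExpr, TMM, glmQLFit with robust dispersions, glmQLFTest) and limma 3.58.1, with DESeq2 1.42.0 as an alternative. P-values were adjusted over all 12391 genes tested by the Benjamini-Hochberg method with a threshold of 0.05, and standard errors were derived from the F statistic. Depth was between 13733581 and 17673955 counts per library, which limits precision for genes of few counts. Replicates of a time point differed by more than sampling noise (chi-square per degree of freedom from 8.13 to 15.0), so all were kept. The labels call them biological replicates but do not say that the pools came from separate days, so p-values measure the spread between these pools. The steps were tested on simulated counts.

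The members, the lists and their roles were chosen with earlier results of these data known. All described members were named. Values in every library were printed for the significantly changed members without overlap, for the 3 most abundant of each family, and for CDH2 and ITGB2. As alternatives, the test, the scaling, the filter and the dispersions were varied, replicate number or gene length was added, and each library was left out in turn. Promoter and protein sequences were not used here, so promoter motifs were not searched. A gene of the neural marker list is not reported here, and the list's values leave it out.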

Additional observations from a re-analysis of the deposited data

How the results depend on the processing

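Upper-quartile normalization moved the median over all genes to -0.14 and gave 5 members higher and 6 lower, 11 lower genes of the 4 lists, and 3400 lower genes of all, with 35.9% of all calls higher against 62.2%, and scaling by library totals gave 52.2%. The centred gene length correction gave 5 members higher and 10 lower genes of the lists, and turned PCDHGA2 to -0.013. Lower genes of the lists numbered 5 with DESeq2's Wald test, 6 with library totals and 5 without a filter. Leaving out 1 library at a time gave 5 to 9 members higher and 2 to 5 lower, 17 to 24 and 1 to 3 list genes higher and lower, and 1965 to 2300 and 1035 to 1432 of all genes. Without 1 h replicate 1, ITGA2B had a log2 fold change of -2.64, and over the leave-one-out fits it ranged up to 0.58, without 1 h replicate 3. Of the 25 tested members without a change, 6 gained a call in at least 1 setting (CDH11, ITGA2B, ITGB1BP3, PCDH1, PCDH10 and PCDH18), and the sign was not stable for 11, ITGB1, ITGA6 and CDH2 among them.

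Libraries with the same replicate number did not deviate together (correlations of -0.0764, 0.00466 and -0.0407). These are correlations of deviations from means of 3 libraries. They cannot settle whether pools of the same number were prepared together. With the replicate block, 8 members were higher and 4 lower, and 2385 and 1345 of all genes, and PCDH1 gained a call (adjusted p = 0.0101). Depth limits the members with few counts, and changes of a few counts in them were not detectable.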

Other observations

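Of the 37 described members, 3, 3 and 3 had their highest level in time 0 replicates 1, 2 and 3, and 8, 10 and 10 in 1 h replicates 1, 2 and 3. The same count was not made over all genes, so this split cannot be read as particular to the members. It also includes CDH7, ITGB6 and PCDH8, which entered through their 1 h libraries alone. A row without a symbol that the table describes as cadherin 12 (ENSGALG00000012941) had 10, 15 and 10 counts at time 0 against 17, 22 and 39 at 1 h, with each 1 h library above each time 0 library in CPM and an adjusted p of 0.0685 in the edgeR test, again highest in 1 h replicate 3. RET, the receptor tyrosine kinase with cadherin-like domains, had 2, 3 and 2 counts at time 0 against 30, 48 and 38 at 1 h (adjusted p = 4.19e-05 in the edgeR test), a start from a few counts like that of ITGB6 and PCDH8. The atypical cadherins FAT1 and FAT3 had 3308, 6808 and 3983 counts and 605, 1709 and 728 counts in time 0 replicates 1, 2 and 3, highest in replicate 2, and their libraries overlapped between the time points (adjusted p = 0.288 and 0.395).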
